A study of Homo sapiens with 8 samples.

Results

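The genes described here carry retinol (vitamin A) in blood and cells, make retinoic acid from it and break retinoic acid down. They are RBP4, STRA6, CRABP2, DHRS3, ALDH1A1, ALDH1A2, ALDH1A3, CYP26A1 and CYP26B1, 9 genes of the 18244 measured. All 24 probe sets whose array annotation names 1 of these genes alone were taken, out of 49495 on the array. The set was proposed with earlier results of these arrays in view, and RBP4 counts as chosen by its log2 values, which those results gave as higher with EN2 in both cell lines. The EN2 changes of RBP4 are therefore given as a description, with no p-value. Where a count of calls holds RBP4, that call is not read as a test of it.

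RNA of 2 established cell lines from human lung adenocarcinoma, A549 and PC9, was measured on arrays. The cells were infected with a retrovirus that carried either EN2, the gene of an engrailed homeobox protein that binds DNA, or Neo alone (the vector control), and stable cells were then selected with the drug the labels call genemycin. The 4 groups were A549 with EN2, A549 with vector, PC9 with EN2 and PC9 with vector, with 2 arrays each. The labels do not say whether a group was 1 clone or a pool, or whether the replicates were separate cultures, so the p-values measure the spread between arrays, which may be technical.

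Retinol leaves the liver bound to RBP4, and STRA6 is a membrane receptor that takes it up from RBP4. Inside the cell retinol is oxidised to retinaldehyde, a step that DHRS3 turns back, and the ALDH1A enzymes oxidise retinaldehyde to retinoic acid. CRABP2 carries retinoic acid to its nuclear receptors, and the CYP26 enzymes inactivate it. In lung, retinoic acid takes part in development and in the upkeep of alveoli and airway epithelium, and CYP26A1 is a classical gene induced by retinoic acid itself.

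Start-site windows from RefSeq (GRCh38.p14) were found for all 9 genes, 19 windows in all, each running from 250 bases before to 50 bases after an annotated start. The bases before the start are shown for 1 window of RBP4, CYP26A1 and CYP26B1, the genes with the highest EN2 changes in the set. All are written 5′ to 3′ on the gene's strand, with every match to a motif searched in capitals. The RBP4 stretch lies at chr10:93601236-93601485 on the minus strand, the CYP26A1 stretch at chr10:93073643-93073892 on the plus strand and the CYP26B1 stretch at chr2:72147863-72148112 on the minus strand. RBP4 has 3 windows in the table, CYP26A1 has 2 and CYP26B1 has 1.
RBP4: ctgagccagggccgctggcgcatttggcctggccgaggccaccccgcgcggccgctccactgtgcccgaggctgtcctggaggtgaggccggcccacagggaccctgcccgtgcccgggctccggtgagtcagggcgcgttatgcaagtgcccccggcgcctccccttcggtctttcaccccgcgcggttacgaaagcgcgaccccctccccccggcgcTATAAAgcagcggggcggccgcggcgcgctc
CYP26A1: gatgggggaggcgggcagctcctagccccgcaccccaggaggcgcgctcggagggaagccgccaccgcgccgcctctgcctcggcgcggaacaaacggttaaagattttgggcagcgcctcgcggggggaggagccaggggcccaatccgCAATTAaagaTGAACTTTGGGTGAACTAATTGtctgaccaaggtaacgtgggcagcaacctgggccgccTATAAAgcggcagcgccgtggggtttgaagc
CYP26B1: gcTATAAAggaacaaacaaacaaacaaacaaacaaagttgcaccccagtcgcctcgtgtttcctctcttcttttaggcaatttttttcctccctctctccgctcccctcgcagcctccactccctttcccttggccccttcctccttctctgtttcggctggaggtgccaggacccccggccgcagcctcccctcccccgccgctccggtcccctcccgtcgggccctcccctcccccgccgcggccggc

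The motifs searched were TAATTA and TAATTG, core letters bound by engrailed-type homeodomains, the TATA-box letters TATAAA, and direct repeats bound by retinoic acid and retinoid X receptors. A repeat was a pair of the hexamer AGGTCA or its variants, which were AGTTCA for one, GGGTCA for another and GGTTCA for the last, with 5, 2 or 1 bases between them. Both strands were read, except for TATAAA, which was searched on the gene's strand. The CYP26A1 stretch holds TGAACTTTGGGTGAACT at bases 161 to 177, which on the opposite strand is AGTTCA repeated after a gap of 5 bases. A repeat of that spacing stands in 0.0883% of 35116 windows of the same length, 31 in number, and CYP26A1 was the only member with one. No member window held a repeat with a gap of 2 or 1 bases, which are in 0.0399% and 0.131% of windows. CYP26A1 also holds TAATTG letters at bases 151 to 156 (as CAATTA) and 177 to 182, and the second of these matches shares 1 base with the repeat. TAATTG stands in 7.38% of windows and was found in 2 members, CYP26A1 and ALDH1A3, while TAATTA stands in 4.84% and was found in no member window. TATAAA begins 31 bases before the start in both the RBP4 and the CYP26A1 stretch. In CYP26B1 it begins 248 bases before the start, and 7.33% of all windows hold it (5 of the 19 member windows, in 3 genes). The RBP4 windows not shown overlap and hold the same match, so these 5 windows are not separate sites. That match begins 225 bases before the start of the one and 6 bases after the start of the other. These matches describe letters in the windows and say nothing about binding in the cells.

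The arrays of a line lay close together and apart from those of the other line. At the 25th percentile the arrays read 4.70 to 4.71 in A549 and 4.27 to 4.31 in PC9, and no probe set had an identical value on arrays of different lines (0%), against 0.519% to 0.713% within a line. The scale of A549 relative to PC9 is therefore not known. A background was taken from the 100 ERCC spike-in probe sets as the mean over a line's arrays of their 95th percentile, 4.38 in A549 and 3.92 in PC9. All 6 epithelial markers checked (EPCAM, KRT8, KRT18, KRT7, KRT19 and CDH1) were above it on every array. So were the alveolar markers NKX2-1, NAPSA, SFTPB and SFTPC and also PECAM1 of endothelium and COL1A1 of fibroblasts. The hepatocyte marker ALB was above it on 4 A549 arrays and 3 PC9 arrays, and the leukocyte marker PTPRC was below it on every array. This background lies below the 25th percentile of every array, so a value above it does not by itself show that a marker is expressed. With EN2, 4 of the 6 epithelial markers were lower in A549, with log2 changes of −1.11 for CDH1 (limma adjusted p = 0.000384), −0.77 for EPCAM (adjusted p = 0.00075), −0.70 for KRT19 (adjusted p = 0.0021) and −0.20 for KRT18 (adjusted p = 0.0476), and none was called in PC9. The part of this shift in the A549 results was not tested. The 18S rRNA control probe sets, by their mean, read 11.66 and 12.12 on the A549 EN2 arrays against 12.44 and 12.74 on the A549 vector arrays, so this signal moved with the groups in A549. In PC9 it read 6.05 to 6.1 on all arrays.

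The brighter EN2 probe set read 7.71 and 7.62 in A549 EN2 cells against 6.48 and 6.57 in A549 vector cells, 2.21-fold higher (log2 change 1.15 ± 0.09 SE, limma adjusted p = 0.00028 over 18244 genes). In PC9 it read 6.24 and 6.39 with EN2 against 5.86 and 5.78 with vector, a log2 change of 0.50 that did not pass (adjusted p = 0.0801). The EN2 arrays of this probe set lay above the vector arrays in both lines. The dimmer EN2 probe set overlapped in both, at 6.46 and 6.34 with EN2 against 6.33 and 6.38 with vector in A549 and 5.19 and 5.20 with EN2 against 5.29 and 4.78 with vector in PC9, with changes of 0.05 and 0.16 that did not pass (adjusted p = 0.934 and 0.987 over all probe sets).

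Leaving RBP4 aside, none of the other 8 genes was called with EN2 in either line (limma, Benjamini-Hochberg adjusted p below 0.05). RBP4, chosen by these values, met the threshold in both lines, higher with EN2. Among all genes tested 2.72% were called in A549 (1.57% higher and 1.15% lower) and 0.367% in PC9 (0.148% higher and 0.219% lower). Since RBP4 was known to be higher when the set was made, nothing is read from these counts. By probe set, 23 of 24 were not called in each line, the other being that of RBP4. Among all probe sets 1.97% were called in A549 and 0.279% in PC9. The median log2 change of the 9 genes was −0.03 in A549 and 0.12 in PC9, against −0.0015 and 0.0040 over all genes. In A549, 2 of the 9 genes had EN2 arrays above both vector arrays, 3 had them below and 4 overlapped, where 24.1% of all genes were above and 23.5% below. In PC9, 4 were above, none below and 5 overlapped, where 17.7% of all genes were above and 15.2% below. The plot of levels by array shows these values for each gene.

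**Figure D1:**
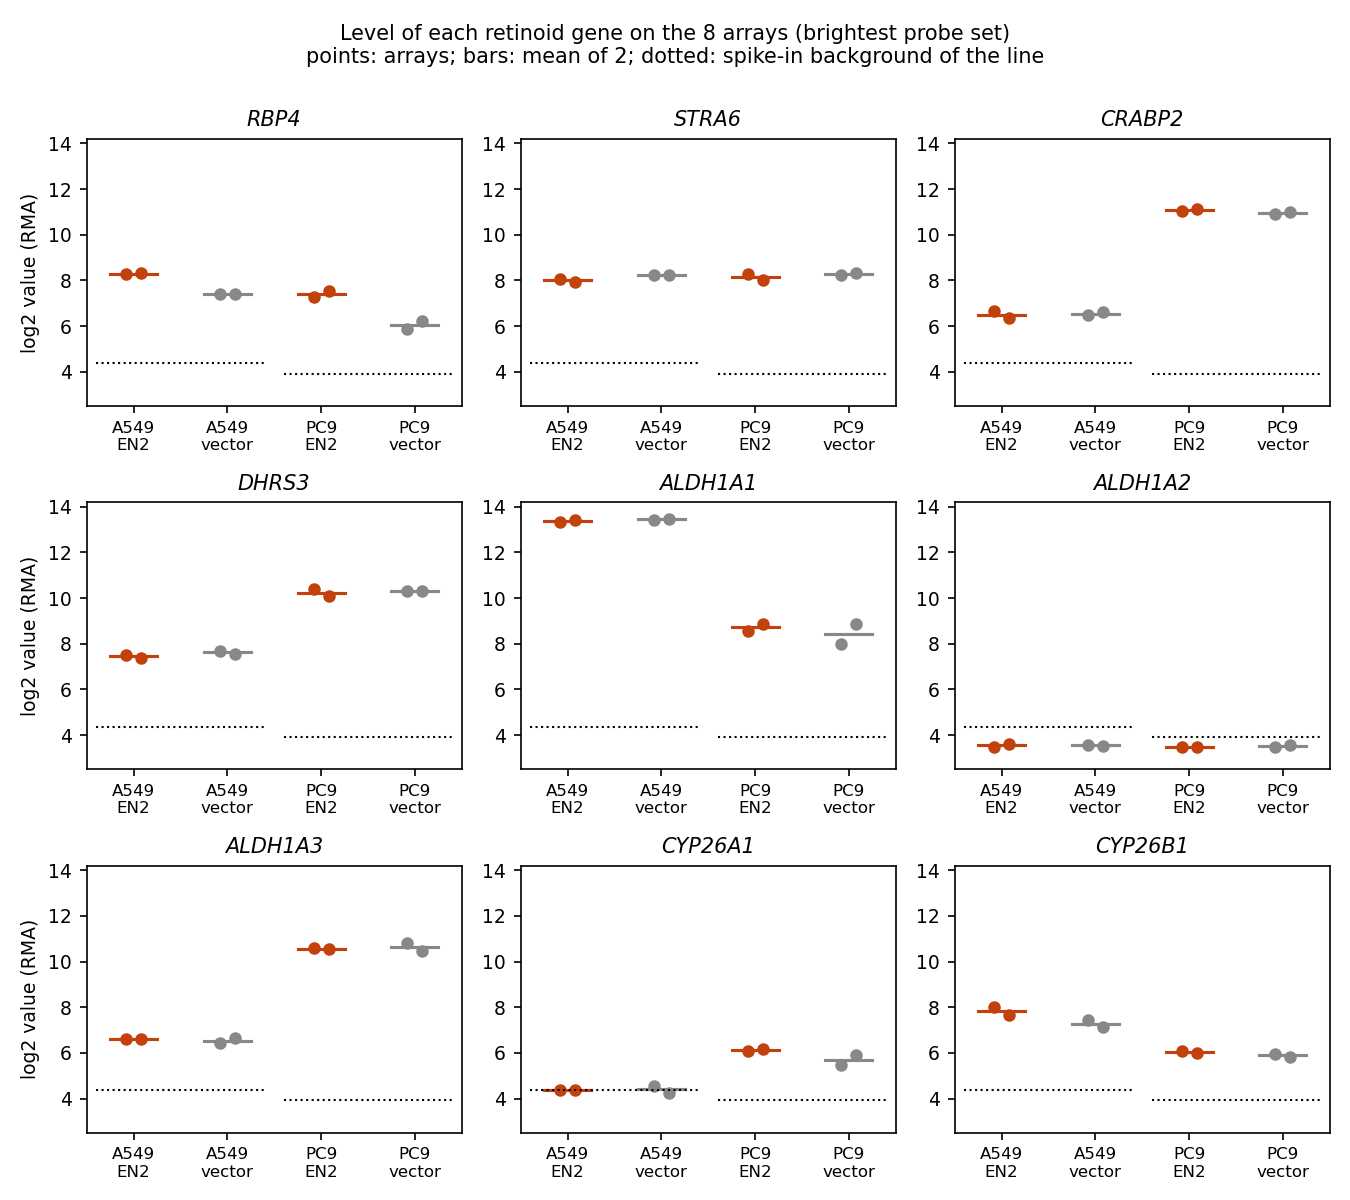
Log2 RMA value (vertical axis) of the brightest probe set of each of the 9 genes on every array, with EN2 left of vector within each line. Points are arrays, bars are means of 2 arrays, and the dotted line is the spike-in background of the line (4.38 in A549, 3.92 in PC9). RBP4 stands higher with EN2 in both lines, ALDH1A2 lies below background everywhere, and CRABP2, ALDH1A1, ALDH1A3 and DHRS3 differ mainly between the lines.

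RBP4, the secreted carrier of retinol in blood, was chosen for its higher values with EN2, which are described here. Its only probe set read 8.26 and 8.33 in A549 EN2 cells against 7.40 and 7.40 in A549 vector cells. The PC9 values were 7.25 and 7.52 with EN2 against 5.87 and 6.23 with vector. The EN2 arrays were above the vector arrays in both lines, with no overlap, and the PC9 arrays of a group lay farther apart than the A549 ones. The means were 8.30 ± 0.051 with EN2 and 7.40 ± 0.0057 with vector in A549, and 7.38 ± 0.19 with EN2 and 6.05 ± 0.26 with vector in PC9 (SD, n = 2 arrays each). This was 1.86-fold higher in A549 (log2 change 0.90 ± 0.13 SE) and 2.51-fold higher in PC9 (1.33 ± 0.13 SE). By size of the change, RBP4 ranked 49 from the top of 18244 genes in A549 and 4 in PC9. As RBP4 was chosen for being higher with EN2 in both lines, high ranks follow from that choice and give no support. The A549 minus PC9 difference of the changes was −0.43, again as a description. In bulk RNA, more cells that express a gene and more RNA per cell cannot be told apart.

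STRA6, the receptor that takes up retinol from RBP4, did not pass in either line on any of its 4 probe sets. The brightest read 8.05 and 7.95 in A549 EN2 cells against 8.26 and 8.23 in A549 vector cells, and 8.28 and 8.01 in PC9 EN2 cells against 8.23 and 8.34 in PC9 vector cells. Its log2 changes were −0.24 in A549 (95% interval −0.47 to −0.02, adjusted p = 0.246) and −0.14 in PC9 (−0.36 to 0.09, adjusted p = 0.966). EN2 arrays lay below vector arrays in A549 and overlapped them in PC9. The third probe set by brightness read 7.95 and 7.86 with EN2 against 8.30 and 8.25 with vector in A549, and 6.90 and 6.94 with EN2 against 7.15 and 7.25 with vector in PC9. Here the EN2 arrays were below both vector arrays in both lines, with log2 changes of −0.38 (adjusted p = 0.0574 over all probe sets) and −0.28 (adjusted p = 0.468). The other STRA6 probe sets had changes of −0.21 and 0.04 in A549, and −0.10 for each in PC9.

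CRABP2, the carrier of retinoic acid inside the cell, had 3 probe sets and none was called. The brightest read 6.66 and 6.35 in A549 EN2 cells against 6.47 and 6.60 in A549 vector cells, and 11.02 and 11.12 in PC9 EN2 cells against 10.89 and 11.00 in PC9 vector cells. The changes of −0.03 (95% interval −0.27 to 0.21, adjusted p = 0.949) and 0.12 (−0.12 to 0.36, adjusted p = 1.0) were small beside the distance between the lines. The other CRABP2 probe sets had log2 changes of −0.14 and −0.17 in A549 and of 0.13 and 0.18 in PC9, without overlap in either line and in opposite directions. The difference between lines did not pass for either of them.

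DHRS3, the enzyme that turns retinaldehyde back into retinol, read 7.51 and 7.39 in A549 EN2 cells against 7.67 and 7.57 in A549 vector cells on its brightest probe set. On the PC9 arrays it read 10.38 and 10.09 with EN2 against 10.29 and 10.33 with vector. The A549 arrays did not overlap and the PC9 arrays did. Neither the A549 change of −0.17 (95% interval −0.40 to 0.06, adjusted p = 0.444) nor the PC9 change of −0.07 (−0.30 to 0.16, adjusted p = 1.0) passed. The other DHRS3 probe sets had changes between −0.15 and 0.08.

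ALDH1A1, a cytosolic enzyme that makes retinoic acid and is widely used as a stem cell marker, read 13.35 and 13.41 in A549 EN2 cells against 13.43 and 13.46 in A549 vector cells. The PC9 values were 8.55 and 8.88 with EN2 against 7.97 and 8.86 with vector. The arrays of EN2 lay below those of vector in A549 and overlapped them in PC9, where the vector arrays had the widest spread of any group among the 9 genes (SD 0.63). The log2 changes were −0.07 in A549 (95% interval −0.57 to 0.44, adjusted p = 0.936) and 0.30 in PC9 (−0.20 to 0.80, adjusted p = 0.978). The PC9 value rested on single arrays: it was −0.15 without vector replicate 1, 0.74 without vector replicate 2, 0.47 without EN2 replicate 1 and 0.13 without EN2 replicate 2, with no call in any of these.

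ALDH1A2, the enzyme that supplies most retinoic acid in the early embryo, was below the spike-in background on all 8 arrays with all 3 of its probe sets. Its brightest probe set read 3.48 and 3.63 in A549 EN2 cells against 3.59 and 3.52 in A549 vector cells, and 3.49 and 3.48 in PC9 EN2 cells against 3.49 and 3.56 in PC9 vector cells. No level or change can be read for it here.

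ALDH1A3, the third enzyme of this step, read 6.62 and 6.60 in A549 EN2 cells against 6.41 and 6.63 in A549 vector cells on the brightest of its 4 probe sets. On the PC9 arrays it read 10.59 and 10.53 with EN2 against 10.81 and 10.46 with vector. The groups overlapped in both lines, and the log2 changes of 0.09 (95% interval −0.17 to 0.35, adjusted p = 0.786) and −0.07 (−0.33 to 0.19, adjusted p = 1.0) did not pass. The other 3 probe sets had changes of −0.03 to 0.16 in A549 and −0.09 to −0.02 in PC9.

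CYP26A1, the main retinoic acid hydroxylase, had 1 probe set, which read 6.09 and 6.18 in PC9 EN2 cells against 5.48 and 5.89 in PC9 vector cells. Both PC9 EN2 arrays were above both vector arrays, and the log2 change of 0.45 (95% interval 0.13 to 0.77, rank 86 of 18244 genes) did not pass after adjustment over all genes (adjusted p = 0.472). It was 0.24 without PC9 vector replicate 1 and 0.65 without PC9 vector replicate 2. In A549 it read 4.38 and 4.36 with EN2 against 4.56 and 4.25 with vector, values around the spike-in background of 4.38, with a log2 change of −0.03 (adjusted p = 0.953). The difference between the lines, −0.48 (95% interval −0.94 to −0.03), did not pass (adjusted p = 0.389).

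CYP26B1, the related hydroxylase, read 8.01 and 7.67 in A549 EN2 cells against 7.44 and 7.12 in A549 vector cells on its brighter probe set. The EN2 arrays were above the vector arrays, and the log2 change of 0.56 (95% interval 0.25 to 0.86, a 1.47-fold difference) missed the threshold (adjusted p = 0.0661). The PC9 arrays read 6.09 and 6.01 with EN2 against 5.96 and 5.83 with vector, a change of 0.16 (−0.15 to 0.46, adjusted p = 1.0), again without overlap. The A549 change passed, at 0.72 each time, without EN2 replicate 2 or without vector replicate 1 of A549, and was 0.39 without EN2 replicate 1 and 0.40 without vector replicate 2. Its dimmer probe set did not share the A549 difference. It read 5.82 and 5.57 with EN2 against 5.74 and 5.79 with vector in A549, and 5.29 and 5.44 with EN2 against 5.26 and 5.60 with vector in PC9, with log2 changes of −0.07 in each line. The A549 change of the brighter probe set was −0.03 with the 18S rRNA signal as a model term. It was 0.23 when the EN2 array with the least and the vector array with the most 18S rRNA were left out. That fit keeps 1 array in each A549 group, 7.67 with EN2 against 7.44 with vector. The arrays left out also held the higher EN2 value (8.01) and the lower vector value (7.12). Whether 18S rRNA or the spread between arrays accounts for the smaller change was not tested.

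**Figure D2:**
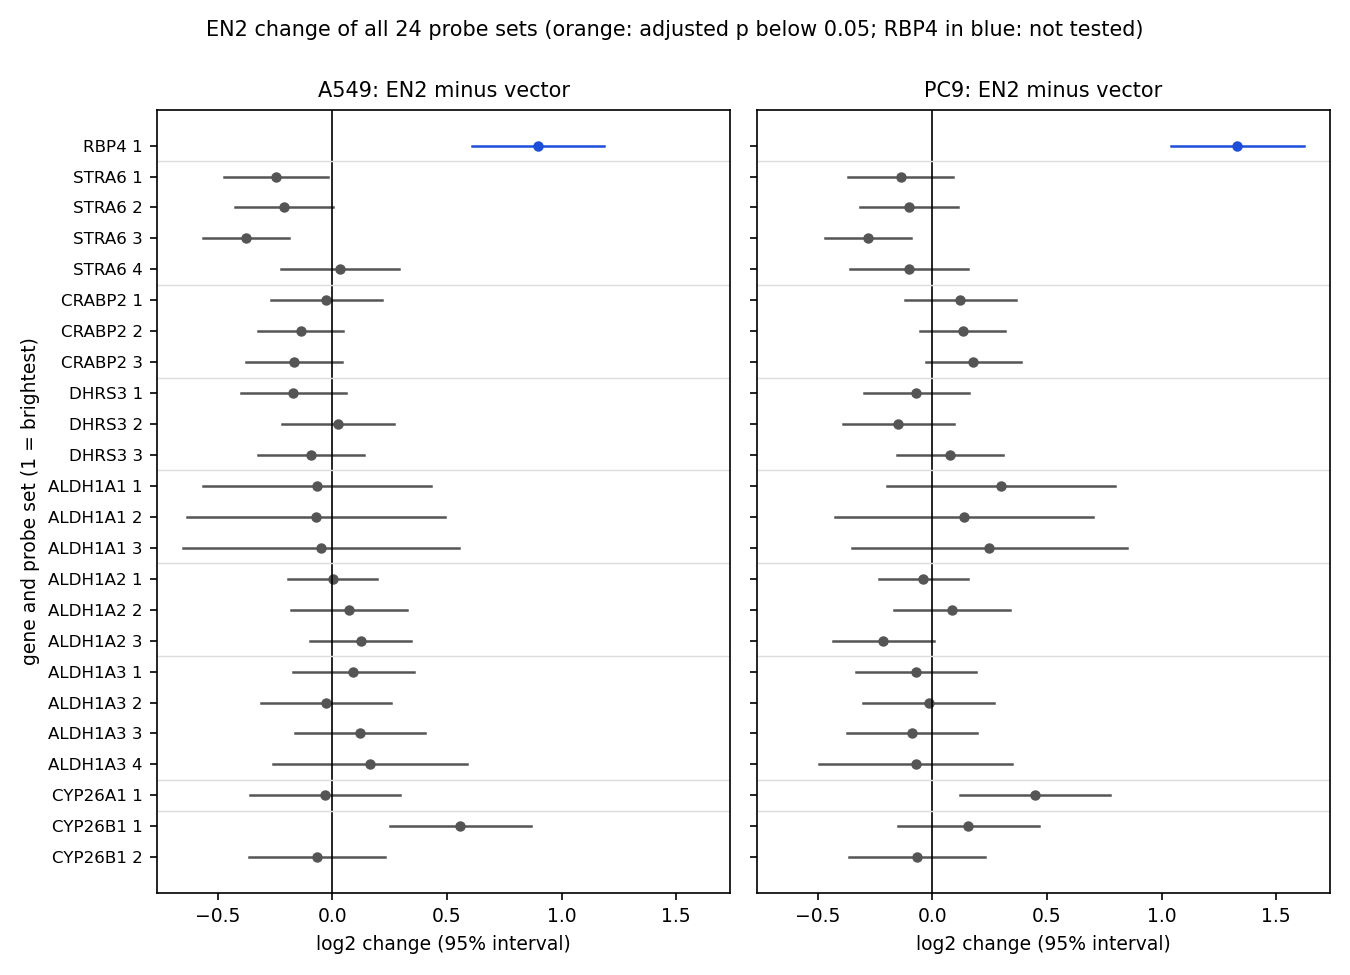
Log2 change, EN2 minus vector (horizontal axis), of all 24 probe sets in A549 (left panel) and PC9 (right panel), numbered from the brightest within each gene. Points are fitted changes, lines are 95% intervals, and orange marks an adjusted p below 0.05 over all probe sets, and RBP4 is drawn in blue without a test. No probe set of the other genes is orange, RBP4 stands at 0.90 in A549 and 1.33 in PC9, and the CYP26B1 probe sets stand apart from each other in A549 (0.56 and −0.07).

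The change with EN2 was compared between the lines for every member. None of the 9 genes was called by limma's test for the difference (0.784% of all genes were). Leaving RBP4 aside, CYP26A1 was the only one with an unadjusted p below 0.05. By probe set, 0 of 24 were called, against 0.537% of all probe sets. The differences ran from −0.48 for CYP26A1 to 0.40 for CYP26B1 (95% interval −0.03 to 0.83, adjusted p = 0.456).

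Between the vector controls, 3 of the 9 genes were higher in A549, 4 were lower and 2 did not pass, where 75.8% of all genes were called (46% higher and 29.7% lower), so the number called is near the background. Each value below is a log2 difference, A549 minus PC9, whose scale across lines is uncertain: the median over all genes was 0.17 as deposited, −0.03 after quantile normalization over all arrays and −0.07 after centring each array on its median. ALDH1A1 averaged 13.45 ± 0.027 in A549 and 8.42 ± 0.63 in PC9 vector cells (SD, n = 2 arrays each), 32.7-fold higher in A549 (5.03 ± 0.22 SE, adjusted p = 3.13e-08). ALDH1A3 differed in the opposite direction, at 6.52 ± 0.15 in A549 and 10.64 ± 0.25 in PC9, 17.3-fold lower in A549 (−4.12 ± 0.12 SE, adjusted p = 1.46e-09). ALDH1A1 was thus the one higher in A549 and ALDH1A3 the one higher in PC9.

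CRABP2 averaged 6.53 ± 0.092 in A549 and 10.94 ± 0.082 in PC9 vector cells, 21.3-fold lower in A549 (−4.41 ± 0.11 SE, adjusted p = 5.39e-10). DHRS3 averaged 7.62 ± 0.075 in A549 and 10.31 ± 0.025 in PC9, 6.44-fold lower in A549 (−2.69 ± 0.10 SE, adjusted p = 1.05e-08). The third DHRS3 probe set pointed the other way, at 0.69 higher in A549. CYP26A1 was lower in A549 (−1.28 ± 0.14 SE, adjusted p = 2.18e-05), but only 1 of its 4 A549 arrays, a vector array, lay above background, so no fold is given. CYP26B1 was 2.62-fold higher in A549 (1.39 ± 0.14 SE, adjusted p = 7.92e-06), with 0.33 for its dimmer probe set. The vector difference of RBP4 was 1.35. STRA6 was at 8.24 ± 0.018 in A549 and 8.28 ± 0.075 in PC9, a difference of −0.04 (95% interval −0.26 to 0.18), while its 4 probe sets ran from −0.04 to 1.08 and the third (1.08) passed.

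These differences kept their direction under both other scalings for the 7 genes called. When 18S rRNA, whose level separates the lines, was added as a model term, 0 of 9 were called. RBP4 lay at 1.11 to 1.35 over the 3 scalings, CYP26B1 at 1.15 to 1.39 and CYP26A1 at −1.63 to −1.28. The ALDH1A2 difference, 0.03 as deposited, was −0.27 after quantile normalization and −0.21 after median centring, with all values below background. Over the 24 probe sets, 9 were higher in A549, 10 lower and 5 not called, where 74.2% of all probe sets were called (47.8% higher and 26.5% lower). The differences between lines were larger than any EN2 change in ALDH1A1, ALDH1A3, CRABP2 and DHRS3, as the plot of vector differences shows.

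**Figure D3:**
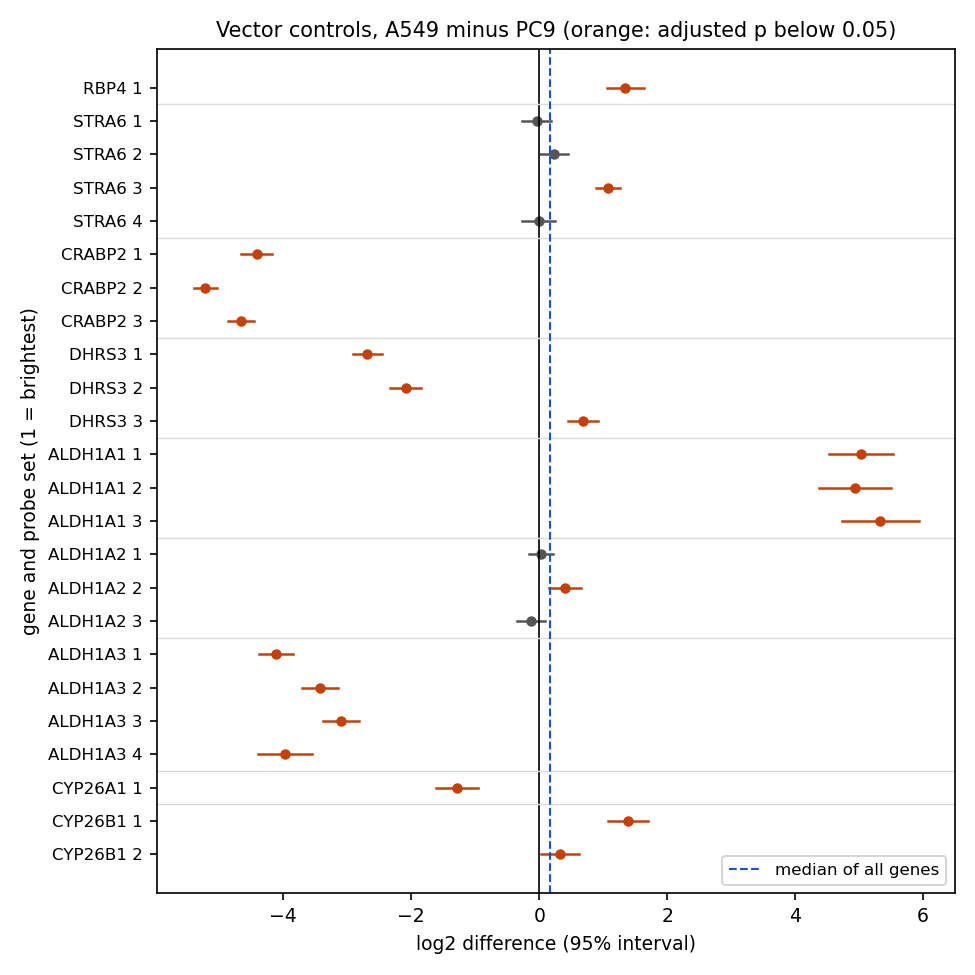
Log2 difference between the vector controls, A549 minus PC9 (horizontal axis), for all 24 probe sets, with 95% intervals. Orange marks an adjusted p below 0.05 over all probe sets, and the dashed line is the median of all genes (0.17). ALDH1A1 lies near 5 on all 3 of its probe sets, and CRABP2 and ALDH1A3 lie between −5.22 and −3.09 on all of theirs.

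Other genes of the pathway were taken from 4 lists. The lists were chosen with earlier results of these arrays known, so the calls and counts within them are a description and not independent tests. Of 26 genes of retinol and retinaldehyde metabolism (enzymes and the retinaldehyde carrier RLBP1), all measured, 1 rose and 1 fell in A549 and 1 fell in PC9, and the other 24 and 25 did not pass (2.72% and 0.367% of all genes were called). The median change was 0.0051 in A549 and 0.03 in PC9, close to that of all genes. RDH11, a retinol dehydrogenase, read 10.65 and 10.63 in A549 EN2 cells against 10.35 and 10.34 in A549 vector cells, a rise of 0.29 on the log2 scale (adjusted p = 0.0294), against 0.08 in PC9 (adjusted p = 0.942). The RDH11 probe sets, 3 in number, ran from 0.14 to 0.29 in A549, where 1 was called over all probe sets. AKR1B10, an aldo-keto reductase that reduces retinaldehyde among other aldehydes, read 13.23 and 13.39 with EN2 against 13.64 and 13.71 with vector in A549. The PC9 arrays read 12.95 and 13.17 with EN2 against 13.53 and 13.60 with vector. It was lower with EN2 in both lines without overlap, with log2 changes of −0.37 (adjusted p = 0.0364) and −0.51 (adjusted p = 0.0263). AKR1B10 has a close paralog, AKR1B15, whose transcripts its probes may share.

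These calls lay close to the threshold. Over 17 alternative settings RDH11 was called in 6, AKR1B10 in 8 for A549 and in 9 for PC9, and none changed sign. With the 18S rRNA covariate AKR1B10 stood at −0.14 in A549 and RDH11 at 0.27, with no call for either. Without both outer 18S rRNA arrays, which leaves 1 array in each A549 group, AKR1B10 stood at −0.25 and RDH11 at 0.28. RDH11 lost its call without any 1 of the 4 A549 arrays (0.28 to 0.31) and without either PC9 vector array. AKR1B10 lost its A549 call without EN2 replicate 1 (−0.29), without either vector array (−0.40 and −0.33) and without either PC9 vector array. In PC9 it lost its call without EN2 replicate 1 (−0.40), without either vector array (−0.54 and −0.47) and without either A549 vector array. Enzymes with the next smallest p-values were DHRS9, which oxidises retinol (−0.58 in A549 and −0.53 in PC9, adjusted p = 0.137 and 0.572), RDH10, the main retinol dehydrogenase of the embryo (0.07 and 0.31, adjusted p = 0.765 and 0.373), RDH16 and DHRS4. For DHRS9, the EN2 arrays read 6.02 and 6.29 against 6.72 and 6.76 for vector in A549, and 4.96 and 5.48 against 5.53 and 5.97 in PC9, below the vector arrays in both lines.

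Of 9 other binding proteins and partners, 7 were analysed here and none passed in either line. Among all genes 2.72% were called in A549 and 0.367% in PC9, so none is close to that share. FABP5, which can carry retinoic acid to a different receptor than CRABP2 does, read 9.28 and 9.54 in A549 EN2 cells against 9.43 and 9.93 in A549 vector cells, and lay below background in PC9. On their brightest probe sets RBP5, RBP7 and LRP2 had log2 changes between −0.01 and 0.12 in both lines. Over all probe sets RBP5 reached −0.19 in A549 and −0.29 in PC9, and LRP2 reached −0.04 and −0.10. Of 13 receptors and cofactors, 10 were analysed here and none passed, beside the same shares of all genes. RARA, a retinoic acid receptor, was 0.30 higher in A549 (adjusted p = 0.133), at 8.50 and 8.29 with EN2 against 8.15 and 8.05 with vector. This was the highest of its 10 probe sets, which ran from −0.06 to 0.30 in A549 with 7 positive. RARB, the receptor whose own gene is induced by retinoic acid, was at −0.47 in A549 (adjusted p = 0.107), with 5.91 and 6.34 with EN2 against 6.68 and 6.52 with vector. In PC9 the arrays of EN2 and vector overlapped for both genes.

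Of 20 genes known to respond to retinoic acid, 18 were analysed here, of which none passed in A549 and 1 fell in PC9. Among all genes 2.72% were called in A549 and 0.367% in PC9 (0.219% lower). Their median change was 0.09 in A549 and 0.01 in PC9. MEIS2, a homeobox gene, read 7.34 and 7.13 in PC9 EN2 cells against 8.06 and 8.02 in PC9 vector cells, a 1.75-fold fall (log2 change −0.81, adjusted p = 0.00588). In A549 it read 6.85 and 6.95 with EN2 against 6.93 and 6.89 with vector, a change of −0.01. The lines differed for MEIS2 (0.80, limma adjusted p = 0.031). All 5 of its probe sets had negative changes in PC9, −0.81 to −0.23, and 2 were called there over all probe sets. With the mean of its probe sets the difference was 0.44 and was not called (limma adjusted p = 0.115). With the 18S rRNA covariate it was 0.87, also not called (limma adjusted p = 0.347). Over 17 alternatives the PC9 call held in 12 and ended, among others, without EN2 replicate 2 (−0.70) and without either vector array (−0.79 and −0.83) of PC9. The call of the difference held in 6 of 16 and ended with any single array left out except PC9 EN2 replicate 1 (0.69 to 0.85). TGM2, a transglutaminase induced by retinoic acid in many cells, read 10.57 and 10.68 in A549 EN2 cells against 10.94 and 10.98 in A549 vector cells. The PC9 values were 8.05 and 8.08 with EN2 against 8.42 and 8.58 with vector. It was below vector in both lines without overlap, at −0.34 and −0.44, and missed the threshold in each (adjusted p = 0.0515 and 0.0601). Its 4 probe sets ran from −1.16 to −0.34 in A549, where 2 were called over all probe sets, and from −0.44 to −0.03 in PC9, where none was. ETS1 (0.72 in A549), NEDD9 (0.40) and ICAM1 (0.31) also did not pass, though 1 of the 3 ICAM1 probe sets was called in A549.

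**Figure D4:**
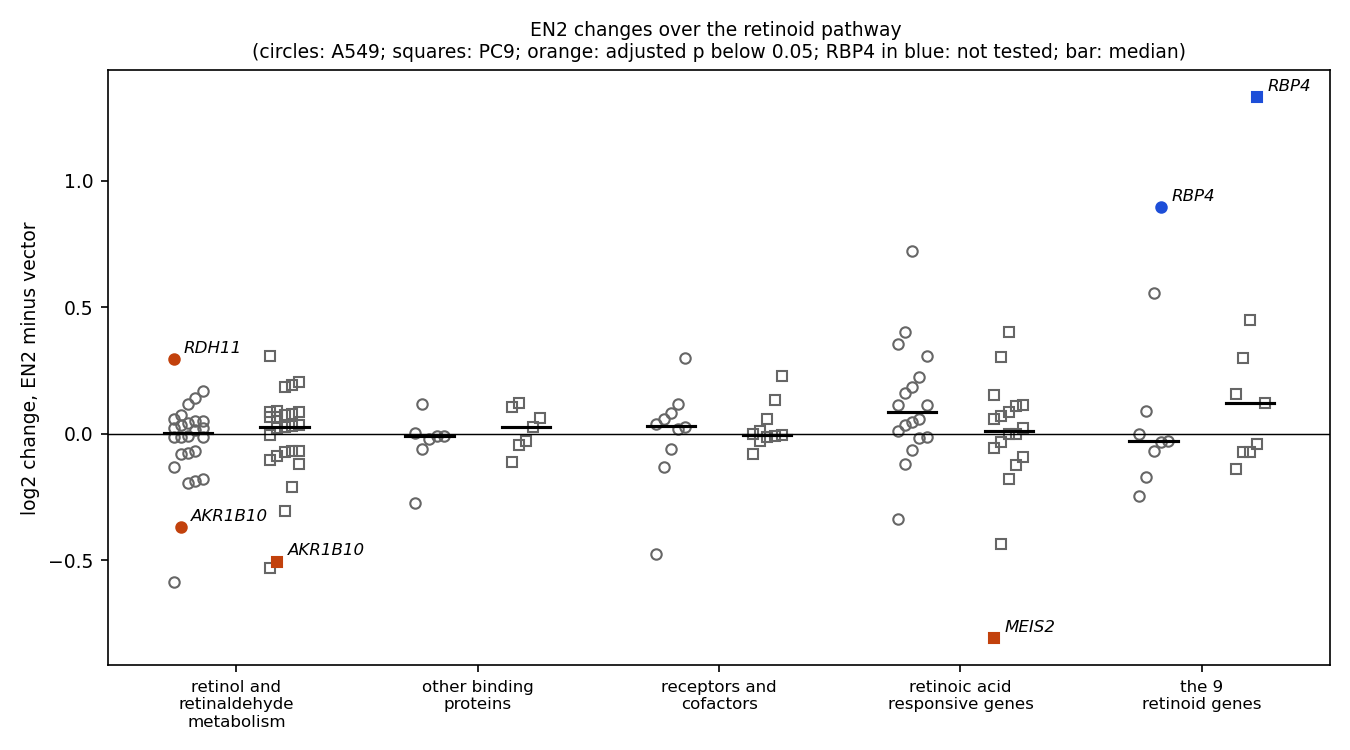
Log2 change, EN2 minus vector (vertical axis), of the measured genes of the 4 pathway lists and of the 9 genes of the set, with A549 as circles and PC9 as squares. Orange symbols have an adjusted p below 0.05, RBP4 is drawn in blue without a test, and bars are medians. RDH11, AKR1B10 and MEIS2 are the orange points, and the list medians lie between −0.01 and 0.09.

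The pattern of RBP4 across the arrays was set against that of 14733 other genes above background in both lines, by Pearson correlation over the 8 arrays after the mean of each line was subtracted. The points share their arrays and the contrast of EN2 with vector, so the correlation is a description. PRKAR2B, which regulates protein kinase A, was most alike (r = 0.993), followed by KLHL42 (0.989), PLCB1, a phospholipase C (0.984), CFAP144 (0.984) and P3H2, a collagen prolyl hydroxylase (0.980). PRKAR2B read 6.41 and 6.31 in A549 EN2 cells against 5.53 and 5.52 in A549 vector cells, and 8.84 and 9.11 in PC9 EN2 cells against 7.46 and 7.99 in PC9 vector cells. Both of its probe sets were higher with EN2 in both lines. The correlation leaves out the size of a change. KLHL42 changed by 0.16 in A549 and 0.20 in PC9 and CFAP144 by 0.19 and 0.29, and none of these passed. In PC9, 2 of 3 CFAP144 probe sets and 1 of 2 P3H2 probe sets were higher with EN2. For PLCB1, 2 of 3 probe sets were higher in A549 and 1 of 3 in PC9, so that its likeness rests on the brightest. On that one both PC9 vector arrays (3.39 and 3.74) lay below the background of 3.92, so that PLCB1 entered by its line mean through the EN2 arrays where it is high. Among the members, r with RBP4 was 0.69 for CYP26A1, 0.60 for CYP26B1, 0.45 for ALDH1A1, 0.34 for CRABP2, −0.57 for DHRS3 and −0.73 for STRA6, over the same 8 arrays.

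RBP4 and CYP26A1 lie close together on chromosome 10, with 3 protein-coding genes between them in the RefSeq order (MYOF, CEP55 and FFAR4). The 11 other genes from KIF11 to SLC35G1 had log2 changes of −0.24 to 0.19 in A549 and −0.17 to 0.17 in PC9. None was called in either line by limma, where 2.72% of all genes were called in A549 and 0.367% in PC9. The smallest unadjusted p was that of MYOF in A549, at −0.22. FFAR4, the neighbour on the CYP26A1 side of RBP4, had changes of −0.13 in A549 and 0.02 in PC9. PDE6C on the other side was below background in both lines.

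The changes of RBP4 were positive under all alternatives tried, from 0.86 to 1.0 in A549 and from 1.15 to 1.51 in PC9. As RBP4 was chosen for being higher with EN2 on these arrays, that sign gives no support. The A549 value was 1.0 with the 18S rRNA covariate, with an SE of 0.27 in place of 0.13. In that setting RBP4 was not among the genes called in A549, which is not read as a test of it. The value was 0.93 without both outer arrays of that signal, a fit that keeps 1 array in each A549 group. CYP26B1 in A549 ran from −0.03 to 0.72 over its alternatives, as the plot of settings shows.

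**Figure D5:**
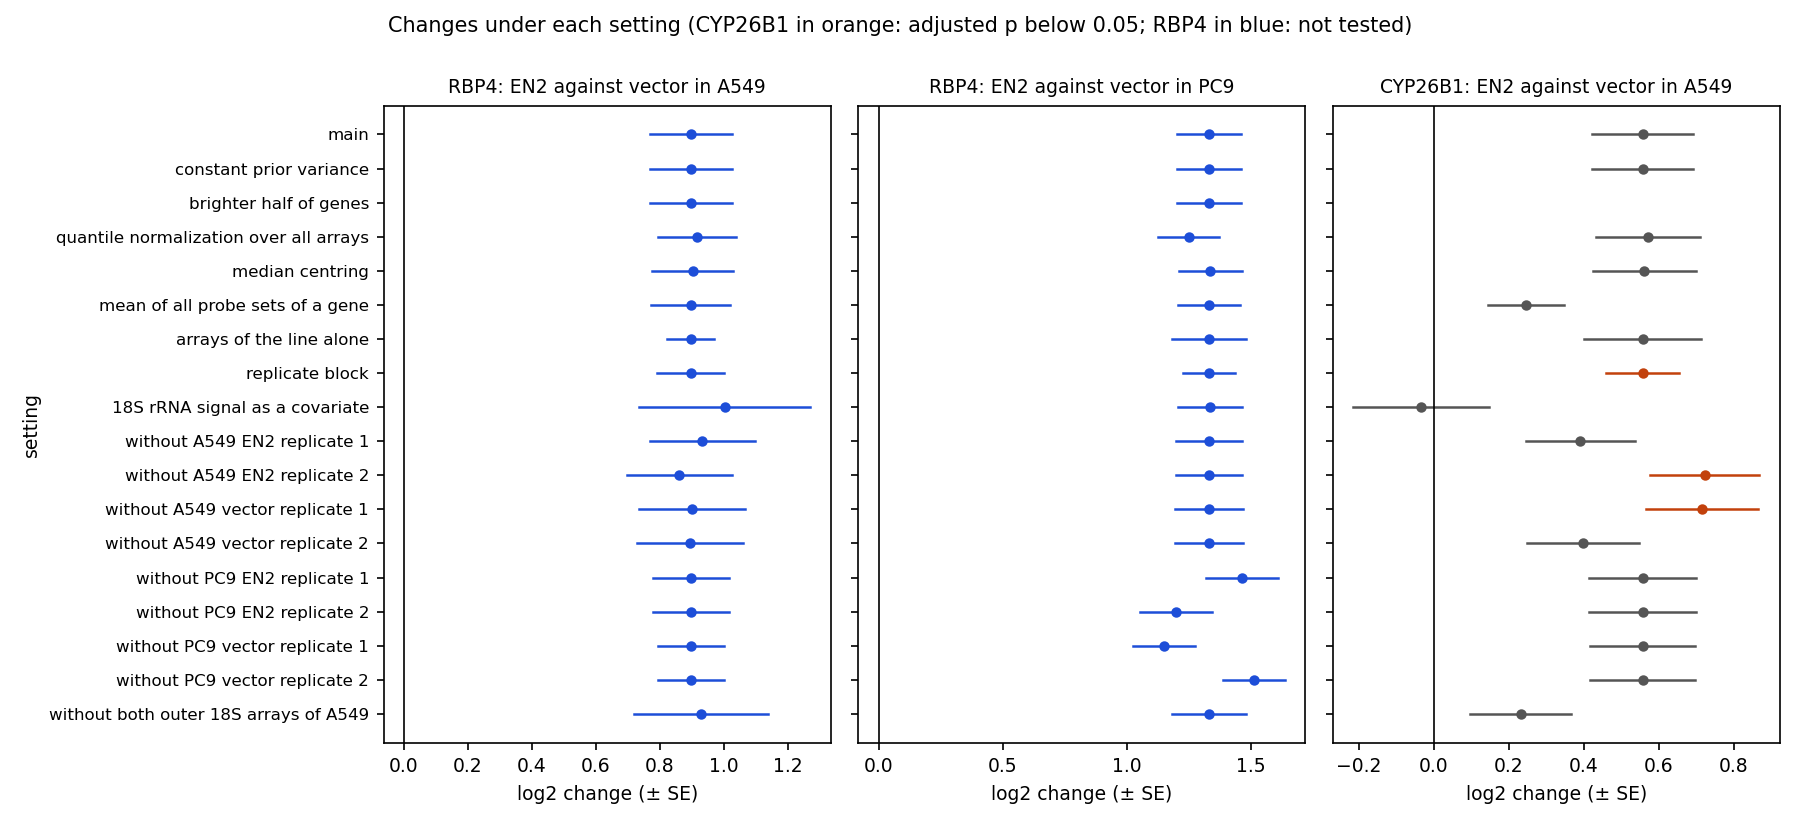
Log2 change, EN2 minus vector, with SE (horizontal axis), of RBP4 in A549, RBP4 in PC9 and CYP26B1 in A549 under each setting (vertical axis). Orange marks an adjusted p below 0.05 for CYP26B1, and RBP4 is drawn in blue without a test. The RBP4 points stay between 0.86 and 1.0 in A549 and between 1.15 and 1.51 in PC9, while the CYP26B1 points run from −0.03 to 0.72.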

How the data were processed

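The deposited table held log2 values of 49495 probe sets on 8 arrays, made by the authors with RMA, per the submitters' processing notes. Which version was used and which arrays were normalised together is not given in the sources used here. Of the probe sets, 45284 carried 1 symbol, 1333 several and 2878 none, with current symbols of GRCh38.p14 (45214 matched by Entrez identifier). A gene was represented by its brightest probe set with 1 symbol, which gave 18244 genes without a filter on dim values.

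limma 3.58.1 in R 4.3.3 fitted a mean per group to all 8 arrays, then eBayes with an intensity trend on shared spread. Tests were two-sided with Benjamini-Hochberg adjustment over all 18244 genes, or all 49495 probe sets for probe set values, and a call was an adjusted p below 0.05. An exact permutation test of 2 against 2 arrays cannot give p below 0.333. The number of arrays limits the precision. The fit was tested on simulated data.

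The members, lists and tests were chosen with earlier results of these data known. Named were EN2, the 9 genes, list genes called in either line and up to 4 more per list with the smallest p, and the 5 genes most like RBP4. The neighbours of RBP4, the motifs and the AKR1B15 remark were added later. Alternatives were another prior variance, brighter genes alone, quantile or median scaling, the mean of probe sets, each line fitted alone, a replicate block, 18S rRNA as a covariate and each array left out. A fit without both outer 18S rRNA arrays of A549 was chosen after seeing the data.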

Additional observations from a re-analysis of the deposited data

Results flagged for a closer look

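For CRABP2, the dimmer 2 of its 3 probe sets had EN2 arrays on opposite sides of the vector arrays in the lines, without overlap in either. The second by brightness read 5.49 and 5.55 with EN2 against 5.65 and 5.66 with vector in A549, and 10.93 and 11.08 with EN2 against 10.84 and 10.90 with vector in PC9, a difference of changes of −0.27 (A549 minus PC9). The third read 5.13 and 5.08 with EN2 against 5.28 and 5.26 with vector in A549, and 10.01 and 10.21 with EN2 against 9.88 and 9.99 with vector in PC9, a difference of −0.35. Neither difference passed limma's test over all probe sets (adjusted p = 0.447 and 0.385), and the brightest CRABP2 probe set overlapped in A549.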

How the results depend on the processing

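With 2 arrays a group, calls moved readily. The number of the 9 genes called in A549 was 1, and it was 2 with the replicate block, 0 with the 18S rRNA covariate, 0 without both outer 18S rRNA arrays of A549 (added after seeing the data) and 0 to 2 with each array left out. It was 0 without A549 EN2 replicate 1 or A549 vector replicate 2, where RBP4 stood at 0.93 and 0.89, and 2 without A549 EN2 replicate 2 or A549 vector replicate 1, where CYP26B1 was also called at 0.72 each time. In PC9 the count of 1 was 0 with the arrays of the line alone and without both outer 18S rRNA arrays of A549, with RBP4 at 1.33 in both. For the vector controls the count of 7 was 0 with the 18S rRNA covariate, which differs between the lines far more than within them, and CYP26A1 turned to 0.50 there. It was 8 with quantile normalization, 8 with the mean of probe sets and 9 with median centring, and ALDH1A2, below background, was called under both of these scalings. ALDH1A2 turned to −0.27 with quantile normalization and −0.21 with median centring, and STRA6 to 0.31 with the mean of its probe sets. STRA6 was called at −0.28 with median centring.

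Under the replicate block CYP26B1 in A549 was called (0.56, adjusted p = 0.0131). Replicates with the same number deviated together with r = 0.349 in A549 and 0.066 in PC9, over 2 pairs a line, and the labels do not say that a shared number marks a shared source, so the pairing was not taken as given. The count for the difference between the lines was 0 under all 16 alternatives, and the arrays of a line alone cannot give it. The brighter genes held 6 of the 9 members.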
